A study of Mus musculus with 4 samples.

Results

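The metallothionein family in human immune cells of a breast tumor was described through its 7 expressed members, MT1E, MT1F, MT1G, MT1H, MT1M, MT1X and MT2A, taken by gene symbol from the 36601 genes counted in the data. Their raw UMIs were read in macrophages and macrophage states, monocytes, dendritic cells, lymphoid cells and tumor cells, each gated on the UMIs of marker genes that include no metallothionein. Human immune cells came from MDA-MB-231 tumors, an established triple-negative breast cancer line, grown in the mammary fat pad of MISTRG mice. These mice carry human genes for myeloid growth factors, were irradiated as newborns and engrafted with human fetal liver CD34+ cells, so every immune cell studied was human in a mouse host. From day 21 after tumor injection 7 mice drank water containing maraviroc (300 mg/l) for 10 days, the 7 untreated mice did not, and all tumors were taken on day 31. The sort was for live human CD45+ cells, and a hashtag antibody marked the mouse of origin before cells were pooled into 2 droplet reactions. Treatment was read from the hashtag names, CTRL or MARAVIROC, because the sample labels do not give it. Of the untreated mice 4 were in reaction 1 and 3 in reaction 2, and of the treated mice 3 and 4.

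Metallothioneins are small, cysteine-rich proteins that bind zinc and copper and buffer free metal in the cytosol. Their human genes lie in a tight cluster and are switched on by the zinc sensor MTF1 when zinc rises, and also by glucocorticoids, inflammatory cytokines, oxidative stress and low oxygen. MT2A and MT1X are the broadly expressed members, whereas MT1G, MT1H and MT1M are usually more restricted. In myeloid cells the family is known for withholding metals from engulfed microbes and for protection against metal and oxidative stress. The MT1 copies are close to one another in sequence, so a 3' read that fits several of them cannot be assigned with certainty, and the split between MT1 members is less certain than their sum.

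Of the droplets within the limits of 601 to 6000 detected genes and under 12.5% mitochondrial UMIs, hashtags assigned 11917 in reaction 1 and 7900 in reaction 2 to a single mouse. In reaction 1 another 10174 were called doublets and 5554 negative, and in reaction 2 another 2142 and 119. Depth differed between the reactions, with a median of 2752 UMIs per barcode within the limits in reaction 1 and 10742 in reaction 2, and each mouse gave 5996882 to 14782548 UMIs in all. The reactions shared 136 barcode sequences, 105 of them within the limits, which were kept apart by reaction. Both reactions used the same hashtag numbers. The gates were set on minimum UMIs of their marker lists, so the level of those lists describes the gates and is no check of them. The T cell list summed to 4431 and 3889 CPM (counts, here UMIs, as parts per 1e+06 UMIs of the gate) in T cells of reactions 1 and 2 against 27.4 and 19.97 in macrophages, the macrophage list to 6855 and 6266 CPM in macrophages against 94.5 and 67.7 in T cells, and the tumor cell list to 3995 and 3284 CPM in tumor cells against 23.3 and 12.2 in macrophages. No gate was passed by 60.9% of the singlets of reaction 1 and 21.1% of those of reaction 2.

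The family was abundant in both reactions. It summed to 138348 UMIs, or 1173 CPM, over all barcodes within the limits in reaction 1 and to 117813 UMIs, or 978 CPM, in reaction 2. MT2A gave 56.3% of these UMIs in reaction 1 and 54.4% in reaction 2. MT1X followed with 13.2% and 12.5%, and MT1G with 12.3% and 12.9%. The other metallothionein genes of the feature list were close to empty: MT1A had 181 and 164 UMIs, the brain-type MT3 had 197 and 60, MT1HL1 had 12 and 10, MT1B had 0 and 2, and MT4, known from squamous epithelium, had 0 and 1. Because 3' UMIs count molecules and not fragments, levels were not divided by gene length, and a comparison between genes is one of UMIs.

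Among the 19817 singlets, the gated macrophages were 24.1% of cells and held 36.5% of all UMIs. They held 56.2% of the UMIs of MT1G, 57.5% of those of MT1H and 61.0% of those of MT1M, but 32.4% of those of MT2A. T cells held 17.3% of all UMIs and 16.8% of the MT2A UMIs, while their share of MT1G, MT1H and MT1M was 0.443%, 0.324% and 0.376%. MT1E was intermediate, with 46.0% of its UMIs in macrophages and 15.4% in T cells. The ungated cells held 27.6% to 34.2% of the UMIs of each member.

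Across cell types the members formed a broad set and a myeloid set. MT2A was present in every gate, and its mean over mice ran from 2394 ± 1379 CPM (SD, n = 4 mice) in tumor cells through 740.5 ± 275 in monocytes (n = 14), 562 ± 99.7 in T cells (n = 14), 533 ± 278 in macrophages (n = 14), 461.5 ± 138 in NK cells (n = 14), 333.5 ± 70.5 in mast cells (n = 4) and 220 ± 52.4 in CD1C+ dendritic cells (n = 8). It then dropped to 47.8 ± 16.4 CPM in B cells, 38.7 ± 39.2 in mature dendritic cells and 20.4 ± 14.0 in plasmacytoid dendritic cells, each with n = 4. In this order CD1C+ dendritic cells and B cells were the one pair of neighbours whose means lay further apart than their SDs, and the other 8 neighbouring pairs did not. Conventional dendritic cells of the CLEC9A type were too few for a value per mouse.

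MT1G, MT1H and MT1M formed the myeloid set. MT1G stood at 196 ± 143 CPM in macrophages and 130.02 ± 109 in monocytes, against 2.84 ± 1.86 in T cells and 3.72 ± 4.06 in NK cells (n = 14 mice each). MT1H stood at 119 ± 113 CPM in macrophages and 71.8 ± 83.7 in monocytes, against 1.24 ± 1.59 in T cells. MT1M, the least abundant member, stood at 27.6 ± 26.5 and 12.01 ± 17.2 CPM in these myeloid gates and at 0.343 ± 0.462 in T cells. The SD over mice in macrophages was close to the mean for MT1H and MT1M, and neither gene had a neighbouring pair of gates whose means lay further apart than their SDs. CD1C+ dendritic cells, which are myeloid as well, reached only 15.6 ± 19.3 CPM of MT1G (n = 8).

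MT1E, MT1F and MT1X lay between the sets. MT1X stood at 173 ± 80.6 CPM in macrophages and 65.6 ± 8.63 in T cells, and its spread over mice in T cells was the narrowest relative to its mean of the members there. MT1F stood at 62.2 ± 23.4 CPM in macrophages, 44.5 ± 21.8 in monocytes, 31.7 ± 10.1 in T cells and 30.9 ± 14.4 in mast cells. MT1E stood at 75.4 ± 37.8 CPM in macrophages and 43.8 ± 20.1 in T cells, but at 12.2 ± 16.8 in NK cells. In tumor cells MT1E reached 328.5 ± 97.8 CPM (n = 4), its one gap beyond the spread of neighbouring gates.

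**Figure D1:**
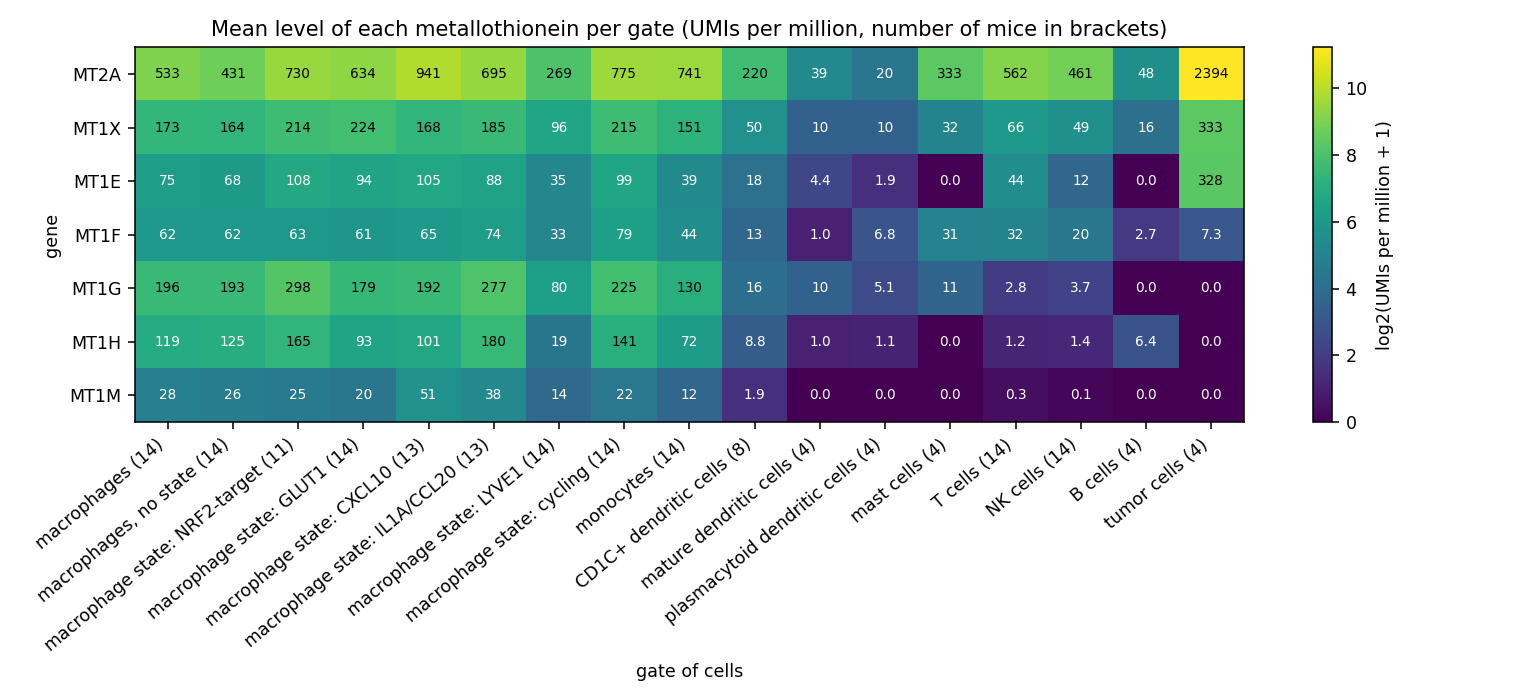
Heat map of the mean level of each member (rows) in each gate and macrophage state (columns, number of mice in brackets). Colour shows log2(CPM + 1) and each cell prints the mean over mice in CPM. MT2A lies between 20.4 and 2394 CPM in the means of all gates, whereas MT1G stands at 196 CPM in macrophages and 130.02 in monocytes against 2.84 in T cells, 3.72 in NK cells and 0 in tumor cells.

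The make-up of the family therefore differed between gates. MT2A was 45.9% ± 4.55 of the family UMIs in macrophages (SD over 14 mice), 64.0% ± 8.56 in monocytes, 79.2% ± 3.37 in T cells, 84.1% ± 3.71 in NK cells and 77.9% ± 4.18 in tumor cells (n = 4). MT1G was 15.7% ± 2.78 in macrophages and 0.433% ± 0.324 in T cells. The MT2A share lay between 38.6% and 56.2% in the macrophages of the 14 mice and between 72.8% and 87.7% in their T cells, with no overlap. Over 16 gates and states the mean levels of MT1G and MT1H, on the log2(CPM + 1) scale, correlated with Pearson's r = 0.90, those of MT1H and MT1M with r = 0.96, and those of MT1X and MT2A with r = 0.92, while MT1G and MT2A had r = 0.37. These are descriptions over gates that share mice, reactions and, for the states, the macrophage gate.

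**Figure D2:**
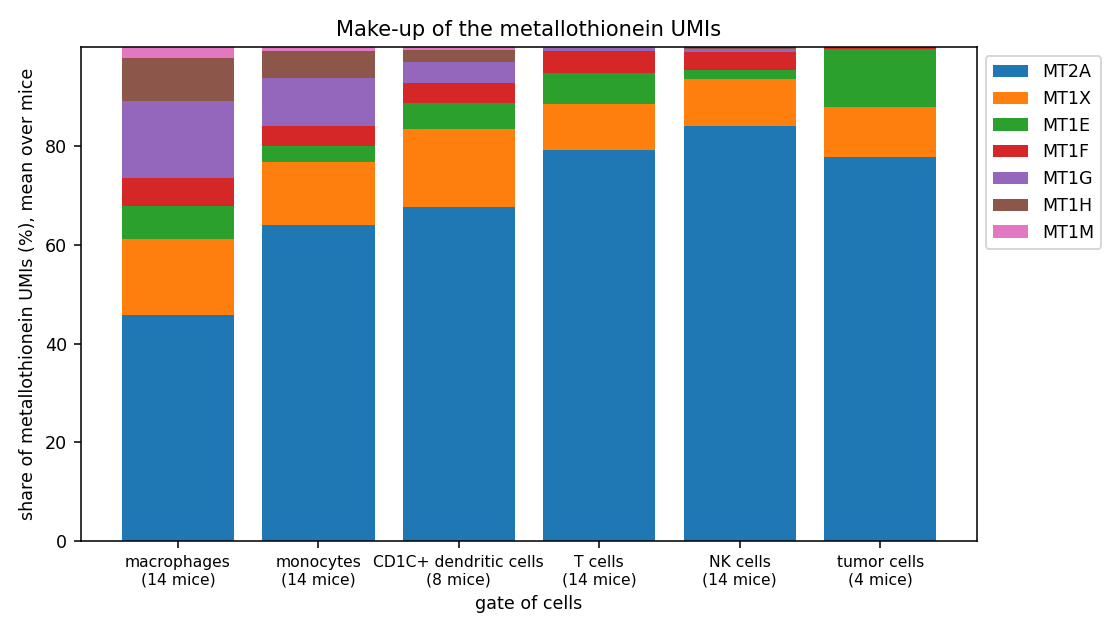
Stacked share of each member in the UMIs of the 7 members, as the mean percent over mice in each of 6 gates. MT2A rises from 45.9% in macrophages to 84.1% in NK cells, and MT1G, MT1H and MT1M are visible in the myeloid gates.

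The trace of the myeloid set in lymphoid cells was small. T cells held 40 UMIs of MT1G, MT1H and MT1M together in reaction 1 and 85 in reaction 2. MT1G was 52.5% and 70.6% of them, MT1H 37.5% and 23.5%, and MT1M 10.0% and 5.88%. In macrophages MT1G was 59.5% and 56.0%, MT1H 33.6% and 35.2%, and MT1M 6.95% and 8.77% of the 3 genes. NK cells held 22 and 7 UMIs of the 3 genes, of which MT1G was 68.2% and 71.4%. These proportions were not tested against those of macrophages, and the part of free RNA in the trace was not tested.

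Genes with the pattern most like the family were sought among 13367 genes by correlation of log2(CPM + 1) over the same 16 gates. For MT1G they were STK32B, SIRPA, ATP2C1, PLEKHB2 and NPL (r = 0.95 to 0.94). SIRPA is the myeloid receptor for CD47. For MT2A they were SPATS2L, TPI1, GAPDH, ACADS and CLPTM1L (r = 0.91 to 0.90), of which TPI1 and GAPDH are glycolytic enzymes. For MT1E they were TLN2, LSM12, RFNG, PLEC and MRC2 (r = 0.92 to 0.91), and for the summed family B4GALT7, GARS, GPI, CTSA and VPS26A (r = 0.93 to 0.91).

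Within macrophages MT1G, MT1H and MT1M were detected in few cells, whereas a UMI of any of the 7 members was found in 70.0% and 60.5% after thinning. To compare cells at one depth, each cell with at least 4000 UMIs was thinned to 4000 and gated again, which left 1556 macrophages in reaction 1 and 2073 in reaction 2. MT1G was detected in 14.6% and 14.2% of these macrophages, against 1.36% and 1.04% of T cells and 2.26% and 0.887% of NK cells thinned in the same way. Before thinning the median depth was 6383 and 13347 UMIs in macrophages and 5923 and 6892 in T cells. MT1H was detected in 9.83% and 8.06% of macrophages against 0.753% and 0.676% of T cells, and MT1M in 5.66% and 5.16%, against 1 MT1M UMI in all thinned T cells of both reactions.

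The top 10% of macrophages by UMIs of a gene held 93.0% and 94.0% of the MT1G UMIs, and up to 38 and 53 UMIs of MT1G were counted in 1 thinned cell. For MT2A the top 10% held 58.5% and 68.4% of its UMIs. T cells were more even for MT2A, which was detected in 73.6% and 67.6% of them against 50.3% and 42.5% of macrophages, with 38.5% and 41.6% of its UMIs in the top 10% of cells. Macrophages and T cells of nearly equal mean MT2A level thus differed in how it was spread over the pooled cells of a reaction. These cells come from several mice, and the part that differences between mice have in the spread was not tested.

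Macrophages with a UMI of MT1G more often had one of another member than macrophages without it. MT1H was detected in 48.5% and 46.1% of macrophages with MT1G, against 3.24% and 1.74% of those without it, and MT1M in 28.2% and 26.8% against 1.81% and 1.57%. MT1H and MT1M, each taken singly, were thus undetected in most macrophages with MT1G. MT2A was detected in 88.5% of reaction 1 macrophages with MT1G against 43.8% of those without it, and in 80.0% against 36.2% in reaction 2. Over single macrophages the thinned log counts of MT1G and MT1H had r = 0.72 and 0.79, those of MT1G and MT2A r = 0.57 and 0.64, and those of MT1E and MT1F r = 0.21 and 0.30. In T cells MT1E and MT1X had r = 0.058 and 0.14. These correlations are over cells that share mice and libraries and are given as descriptions.

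**Figure D3:**
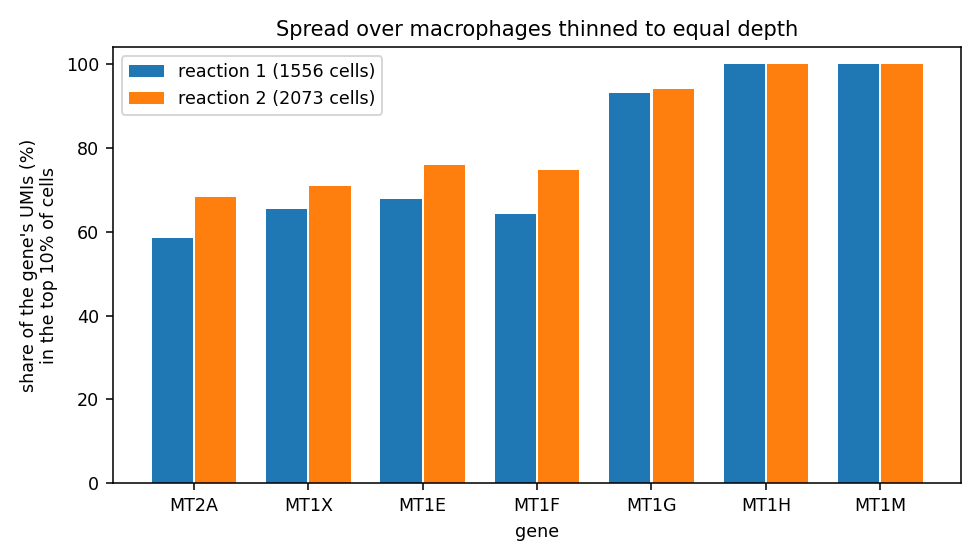
Percent of each member's UMIs held by the top 10% of macrophages, in cells thinned to 4000 UMIs, with 1 bar per reaction. MT1G stands at 93.0% and 94.0%, MT2A at 58.5% and 68.4%, and MT1H and MT1M at 100%, since under 10% of cells hold them.

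The myeloid gates were compared within mice. Counts were summed per mouse and gate and fitted across all genes with edgeR's quasi-likelihood test and the mouse as a block, with Benjamini-Hochberg adjustment over all genes tested. Values below are log2 fold changes ± SE, with the adjusted p. Monocytes, the circulating precursors marked by S100A8, S100A9 and VCAN, differed from macrophages in 6 of the 7 members. Of the 9946 genes tested, 30.7% were called higher and 31.5% lower in monocytes.

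MT2A was higher in monocytes, by 0.58 ± 0.113 (adjusted p = 9.74e-05), the one member with this sign, although in reaction 2 alone it was at 0.31 (adjusted p = 0.0633). MT1E was lower by -0.99 ± 0.161 (adjusted p = 1.13e-05), MT1M by -1.07 ± 0.30 (adjusted p = 0.00344) and MT1F by -0.40 ± 0.105 (adjusted p = 0.00224). MT1H, at -0.65 (adjusted p = 0.0255), and MT1G, at -0.58 (adjusted p = 0.0432), were called lower with less margin. The MT1H call was lost without untreated replicate 5 (adjusted p = 0.0939) or maraviroc replicate 3 (adjusted p = 0.0519), and the MT1G call without any of 9 mice, which were untreated replicates 2, 3, 4, 5 and 7 and maraviroc replicates 3, 4, 5 and 7 (adjusted p up to 0.121). MT1X was not called (-0.20, 95% interval -0.60 to 0.20). Its highest monocyte level, 442 CPM, belonged to maraviroc replicate 1, and without that mouse MT1X was -0.40 (adjusted p = 0.0146). The zinc sensor MTF1 was higher in monocytes by 0.95 ± 0.132 (adjusted p = 1.25e-06). Of 22 zinc and copper handling genes tested, 2 were higher and 10 lower, among them the zinc importer SLC39A1 (-0.81) and the copper importer SLC31A1 (-0.69).

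T cells and macrophages differed in 6 members, and MT2A was not called. Of the 11696 genes tested, 39.2% were called higher and 40.5% lower in T cells. MT1G was lower in T cells by -6.44 ± 0.18 (adjusted p = 2.38e-18), MT1H by -7.03 ± 0.256 (adjusted p = 2.03e-16) and MT1M by -6.92 ± 0.229 (adjusted p = 3.78e-17). MT1X was lower by -1.67 ± 0.153 (adjusted p = 1.91e-09), MT1F by -1.36 ± 0.149 (adjusted p = 3.41e-08) and MT1E by -0.89 ± 0.173 (adjusted p = 8.13e-05). The mean MT2A level in CPM, which lacks the TMM scaling of the fit, was slightly higher in T cells (562, SD 99.7, against 533, SD 278). In the edgeR fit MT2A was at -0.10 ± 0.157 (adjusted p = 0.577, 95% interval -0.40 to 0.21). The sign of that small value turned without both untreated mice of hashtag B0251, to 0.09, and without untreated replicate 5 alone, to 0.00087. Of 23 zinc and copper handling genes, 16 were lower in T cells (median -0.44, against 0.00044 over all genes). They were led by the copper transporter SLC31A2 (-4.40), the zinc importer SLC39A8 (-3.68) and the zinc exporter SLC30A1 (-2.90). The zinc importer SLC39A10 (0.94) and SLC30A6 (0.48) were higher. This direction was not particular to metal handling. Targets of the oxidative stress factor NRF2 were lower in 13 of 20 and higher in 3, and glucocorticoid response genes in 9 of 12 and 3. Heat shock genes were lower in 8 of 11 and hypoxia genes in 9 of 10, with 0 higher in either. The medians of these other lists ran from -1.20 to -0.82, below that of the zinc and copper genes.

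NK cells were lower than T cells in all 4 members that could be tested. Of the 7360 genes tested, 15.6% were called higher and 15.9% lower in NK cells. MT1E was lower by -1.84 ± 0.33 (adjusted p = 0.000138), MT1F by -0.59 ± 0.145 (adjusted p = 0.00292) and MT1X by -0.44 ± 0.106 (adjusted p = 0.00239). MT2A was lower by -0.30 ± 0.115 (adjusted p = 0.0493), and this call was lost when any of 9 of the mice was left out, untreated replicates 1, 3, 5, 6 and 7 and maraviroc replicates 1, 2, 4 and 7, with adjusted p up to 0.114. The MT1E level in NK cells had a mean of 19.0 ± 22.0 CPM in reaction 1 and 5.26 ± 4.07 in reaction 2 (n = 7 mice each). In reaction 1 alone the MT1E difference was -1.03 (adjusted p = 0.0714). The highest NK value, 62.4 CPM in maraviroc replicate 3, rested on 27 UMIs.

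Among T cells, splits by CD8A, CD4, FOXP3 and the cycling list were added after the data had been seen. The group with FOXP3, the regulatory T cell factor, required no CD4 UMI and could hold CD8A. Its comparison group had CD4 without CD8A or FOXP3. MT2A was lower in T cells with FOXP3 than in that group, by -0.48 ± 0.104 (adjusted p = 0.00127, n = 10 mice), where 12.3% of 7076 genes were called higher and 12.5% lower. This difference was called in each of the 10 alternatives that did not leave out single mice and lay between -0.59 and -0.35 in them. Of 9 glucocorticoid response genes tested in the FOXP3 split, 5 were lower and 0 higher (median -0.53, against -0.0006 over all genes). In cycling T cells 4 of 9 were lower and 0 higher, and in T cells with CD8A 1 of 9 was lower and 0 higher. MT1E was lower in T cells with CD8A than in those with CD4, by -0.54 ± 0.182 (adjusted p = 0.0296), whereas MT1F was higher, by 0.51 ± 0.159 (adjusted p = 0.0176, n = 12), against 14.6% of 7366 genes higher and 15.6% lower. The CD4 group of this split included cells with FOXP3. In reaction 1 it held 261 cells (6 mice), against 88 cells with CD4 and no FOXP3 (4 mice). MT1F lost its call without both untreated B0251 mice (adjusted p = 0.118) and without untreated replicate 5 alone (adjusted p = 0.0546), and MT1E without any of 5 single mice, which were untreated replicates 3, 5 and 6 and maraviroc replicates 4 and 7, with adjusted p of 0.0561 to 0.0808. Cycling T cells held more MT2A (0.45 ± 0.0787, adjusted p = 5.88e-05) and MT1E (0.60 ± 0.138, adjusted p = 0.00129) and less MT1F (-0.46 ± 0.162, adjusted p = 0.0278, n = 11) than the other T cells, where 19.1% of 8094 genes were called higher and 18.8% lower. That MT1F call was lost without untreated replicate 3, 4 or 6 or maraviroc replicate 5 (adjusted p up to 0.067). In both of these splits the called differences of MT1E and MT1F had opposite signs.

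The tumor cells in the CD45+ sort were few but held the highest mean levels of MT2A, MT1E and MT1X of all gates. The gate held 52 cells in the 4 mice with at least 10, with 10, 11, 14 and 17 cells. MT2A stood at 2234 CPM in untreated replicate 3 and at 1328, 4384 and 1631 CPM in maraviroc replicates 2, 3 and 7. MT1E stood at 329, 287, 463 and 235 CPM in the same mice. All of these MT2A and MT1E values exceeded the macrophage level of the highest of the 14 mice, 1125 CPM of MT2A and 167 of MT1E.

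In these 4 mice 16.1% of 9882 genes were called higher and 23.8% lower in tumor cells, with the median of all genes at -0.21. MT2A was higher than in macrophages by 2.14 ± 0.285 (adjusted p = 2.3e-09) and MT1E by 2.43 ± 0.316 (adjusted p = 1.05e-09). MT1X was higher by 0.89 ± 0.326 (adjusted p = 0.0237), but its level of 781 CPM in maraviroc replicate 3 stood over 137, 203 and 212 CPM in the others, and without that mouse MT1X was at 0.45 (adjusted p = 0.413). It also lost its call without maraviroc replicate 2 (adjusted p = 0.0611) or 7 (adjusted p = 0.0992). MT1F was lower by -3.38 ± 0.731 (adjusted p = 0.0001), with 3 UMIs in all.

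MT1G, MT1H and MT1M had no UMI in 541628 UMIs of these tumor cells and were called lower than in macrophages in the same fit. With the limit of 3 counts that a count of 0 allows over the group, MT1G was at least 28.2-fold lower than in the macrophages of the same mice, MT1H at least 15.2-fold and MT1M at least 4.04-fold. These bounds and the intervals in the text cover counting error or the spread between mice only. All cells of the tumor gate, also those of mice with fewer than 10, were 0.500% of singlets and held 0.822% of all UMIs, 3.47% of the MT2A UMIs and 4.23% of the MT1E UMIs, but 0.00547% of the MT1G UMIs.

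Macrophage states were gated on genes that mark stress, interferon or tissue programs, and each was compared with the same reference, the macrophages that passed no state gate. The comparisons therefore share that reference, and cells passing several state gates count in each. The reference is not free of macrophage programs, since a planned TREM2 list (TREM2, GPNMB, SPP1 and FABP5) was not used as a gate. The MT1G+ macrophages that the paper names were not gated apart either, so such cells can lie in the reference. In reaction 1 its MT1G mean was 193 ± 130 CPM, against 176 ± 114 in all gated macrophages (SD, n = 7 mice). State cells were deeper than the reference: the median was 4581 and 12270 UMIs in the reference in reactions 1 and 2 and 10194 to 12965 and 12919 to 16462 in the states. All cells were also thinned to 4000 UMIs and gated again. The minimum UMIs of the state lists were not lowered for this, so at that depth the state gates were stricter. The thinned states are thus other sets of cells, and cells that failed the stricter gates can lie in the reference. The thinned value therefore does not test the same states at equal depth. It is given where it turned a result, with the state or with the other settings below. Thinned cells could not be fitted for the NRF2-target state. LYVE1 cells, whose macrophage list stood at 10225 and 8626 CPM, were the state richest in macrophage markers.

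The CXCL10 state, gated on interferon-induced genes, had the clearest change, and it was one of MT2A. MT2A ranged from 539.5 to 1587 CPM (median 936) over 13 mice in this state and from 150.0 to 1042 (median 314) in the reference over 14 mice, and it was higher in the state in 13 of 13 mice. The difference was 1.29 ± 0.157 (adjusted p = 2.01e-06), where 9.92% of 8693 genes were called higher and 8.32% lower. It lay between 1.15 and 1.69 in the 10 alternatives that did not leave out single mice, thinned cells included (1.54), and was called in each. MT1M (1.04 ± 0.237, adjusted p = 0.00298) and MT1E (0.74 ± 0.167, adjusted p = 0.00279) were higher too.

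MT1G was at 0.17 (95% interval -0.24 to 0.58), MT1H at -0.35 (-0.90 to 0.20), MT1F at 0.15 and MT1X at 0.13 in CXCL10 cells, none of them called. MT2A thereby made up 60.1% ± 10.9 of the family in this state against 41.9% ± 5.998 in the reference. In reaction 1 alone MT1M was at 0.48 (adjusted p = 0.403), and in reaction 2 alone MT1E was at 0.68 (adjusted p = 0.0983). Of the other genes of metal handling, the copper carriers SLC31A2 (0.59 ± 0.114) and ATOX1 (0.56 ± 0.0815) were higher and SLC39A11 (-0.29) was lower, of 21 tested, whose median was 0.05 against -0.01 over all genes.

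LYVE1 macrophages, a state gated on LYVE1, FOLR2, SELENOP and CCL18 and known from tissue-resident cells, were low in the family. MT1H ranged from 0 to 58.4 CPM (median 11.7) over 14 mice, against 21.9 to 545 (median 82.5) in the reference, and was lower by -2.13 ± 0.292 (adjusted p = 4.26e-06), with the lower value in 13 of 14 mice. Of the 9122 genes tested, 12.8% were called higher and 11.9% lower. MT1F was lower by -0.74 ± 0.128 (adjusted p = 8.38e-05), in 14 of 14 mice. MT1H and MT1F were called in each of the 10 alternatives.

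MT2A (-0.53 ± 0.147, adjusted p = 0.00825), MT1X (-0.58 ± 0.176, adjusted p = 0.0162), MT1G (-0.92 ± 0.299, adjusted p = 0.0251) and MT1E (-0.66 ± 0.23, adjusted p = 0.0381) were lower in LYVE1 cells as well, and MT1M was not called (-0.46, 95% interval -1.11 to 0.20). Without both untreated B0251 mice MT2A was at -0.30 (adjusted p = 0.0232), but MT1X (adjusted p = 0.0894), MT1G (adjusted p = 0.117) and MT1E (adjusted p = 0.165) were no longer called. MT1G was also lost without untreated replicate 5 alone (-0.76, adjusted p = 0.0732), and MT1E without any of 8 single mice, namely untreated replicates 1, 2, 5 and 7 and maraviroc replicates 1, 3, 5 and 6 (adjusted p up to 0.0983). MT2A missed the threshold within either reaction alone (adjusted p = 0.103 and 0.0564). The zinc importer SLC39A8 (-0.96 ± 0.0824, adjusted p = 2.52e-09) and MTF1 (-0.42 ± 0.115, adjusted p = 0.00749) were lower in the same cells, and ATOX1 (0.28) and SLC30A7 (0.22) were higher. Of 21 zinc and copper handling genes tested, 4 were lower and 2 higher, with a median of -0.04 against -0.0004 over all genes.

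Cycling macrophages held more MT2A, by 0.83 ± 0.152 (adjusted p = 0.000104, higher in 12 of 14 mice), more MT1E, by 0.54 ± 0.17 (adjusted p = 0.0139), and more MT1F, by 0.30 ± 0.118 (adjusted p = 0.0464). Of the 9043 genes tested, 17.8% were called higher and 19.8% lower. MT2A was called in each alternative, between 0.42 and 1.05. MT1X was not called (0.34, adjusted p = 0.107) but passed without untreated replicate 5 (adjusted p = 0.0291) or 6 (adjusted p = 0.0352). The MT1F call was lost without any of 9 single mice, untreated replicates 1, 3, 4 and 7 and maraviroc replicates 2, 4, 5, 6 and 7 (adjusted p up to 0.109), and with doubled gate thresholds, where it was at 0.08. MT1G and MT1H were not called (0.35 and 0.22). Of 21 zinc and copper handling genes tested, 0 were higher and 5 lower in cycling macrophages (median -0.02, against -0.004 over all genes). Cycling T cells, tested separately above, also held more MT2A and MT1E, whereas MT1F was lower there.

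The NRF2-target state was gated on SLC7A11, GCLM, SRXN1, TXNRD1 and OSGIN1, which the oxidative stress factor NRF2 induces. MT2A was higher there by 0.89 ± 0.21 (adjusted p = 0.0103, n = 11 mice), where 4.95% of 7199 genes were called higher and 3.17% lower. It ranged from 190 to 2265 CPM (median 678) and was above the reference in 8 of 11 mice. The MT2A difference was not tested at equal depth. The median depth was 12965 and 14456 UMIs in this state, against 4581 and 12270 in the reference. MT1G was at 0.92 ± 0.313 (adjusted p = 0.0719), and its level of 28.5 to 950 CPM overlapped the reference. It passed the threshold when any of 4 single mice was left out (untreated replicates 2, 4 and 6 and maraviroc replicate 1), with 1.12 (adjusted p = 0.026) without untreated replicate 4. MT1H (0.92, adjusted p = 0.225), MT1E (0.67, adjusted p = 0.101), MT1M (0.41), MT1X (0.35) and MT1F (0.16) were not called.

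In reaction 1 alone MT2A was at 0.62 (adjusted p = 0.244) in NRF2-target cells and in reaction 2 alone at 1.12 (adjusted p = 0.0356). NRF2 targets that took no part in the gate were higher in 14 of 18 tested (median 0.74, against -0.01 over all genes), led by heme oxygenase HMOX1 (2.63 ± 0.142), the heme transporter SLC48A1 (1.99) and SQSTM1 (1.54). Of the heat shock genes 9 of 11 were higher, among them BAG3 (1.08) and DNAJB1 (0.79). Of 18 zinc and copper handling genes, SLC30A1 (0.62 ± 0.184, adjusted p = 0.0392), the zinc exporter that MTF1 also controls, and SLC39A8 (0.41) were higher, and SLC39A11 (-0.42) was lower. The NRF2 targets outside the gate were also higher in other states, in 7 of 18 in LYVE1, 6 of 18 in GLUT1 and 6 of 18 in IL1A/CCL20 cells. In CXCL10 cells 2 of 18 were higher, and in cycling cells 1 was higher and 5 were lower.

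GLUT1 macrophages, gated on the hypoxia-induced genes SLC2A1, ADM, HILPDA, NDRG1, BNIP3 and CA12, showed modest values. MT2A (0.55 ± 0.181, adjusted p = 0.0236), MT1E (0.56 ± 0.192, adjusted p = 0.0288) and MT1X (0.54 ± 0.17, adjusted p = 0.0191) were higher, where 17.2% of 7383 genes were called higher and 13.9% lower. All 3 turned in cells thinned to 4000 UMIs under the stricter gates, where MT2A was at -0.47 (adjusted p = 0.586), MT1E at -0.20 and MT1X at -0.33. MT2A lay above the reference in 9 of 14 mice, and the call was lost without untreated replicate 7 (adjusted p = 0.0553) or maraviroc replicate 6 (adjusted p = 0.0534), the MT1E call without untreated replicate 4 or 7 or maraviroc replicate 5 (adjusted p up to 0.0749). MT1G was at 0.02 (95% interval -0.60 to 0.63), but MT1G and MT1F turned negative in thinned cells (values with the other settings below). Hypoxia genes outside the gate were higher in 10 of 10 (median 1.28, against -0.02 over all genes), led by EGLN3 (2.92 ± 0.24), and heat shock genes in 10 of 11, led by HSPA6 (1.81 ± 0.183). In IL1A/CCL20 cells 5 of 10 hypoxia genes were higher too, against 2 of 10 in NRF2-target and 1 of 9 in CXCL10 cells. In LYVE1 and cycling cells 0 of 10 were higher. Of 20 zinc and copper handling genes tested in GLUT1 cells, 1 was higher and 4 were lower (median -0.14, against -0.02 over all genes).

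IL1A/CCL20 macrophages, gated on the inflammatory genes IL1A, CCL20, IL6 and PTGS2, had 1 member called at full depth. MT2A was higher by 0.66 ± 0.185 (adjusted p = 0.0221, in 11 of 13 mice), where 7.32% of 8115 genes were called higher and 4.66% lower. It was at 0.03 in thinned cells under the stricter gates (adjusted p = 0.995). The call was lost without both untreated B0251 mice (adjusted p = 0.0872) and without untreated replicate 1 (adjusted p = 0.0501) or maraviroc replicate 5 (adjusted p = 0.0594). MT1G had a wide spread there, from 11.6 to 882 CPM, and its difference was 0.46 ± 0.285 (adjusted p = 0.345). MT1E was at 0.47 (adjusted p = 0.0708) and passed the threshold without untreated replicate 2 or maraviroc replicate 3 or 6. MT1H was at 0.34 and not called. In thinned cells under the stricter gates MT1H was called lower and MT1G turned negative (values and their limit with the other settings below). MTF1 (0.54 ± 0.136, adjusted p = 0.0107) and SLC39A8 (0.51 ± 0.125, adjusted p = 0.00948) were the 2 higher of 20 zinc and copper handling genes. Heat shock genes were lower in 6 of 11 (median -0.50), in contrast to the NRF2-target and GLUT1 states. Of 11 glucocorticoid response genes tested in each state, 4 were higher and 0 lower in IL1A/CCL20 cells, and 5 and 1 in GLUT1 cells. The counts were 3 higher and 2 lower in LYVE1, 1 and 2 in CXCL10, 1 and 0 in NRF2-target and 0 and 5 in cycling cells.

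**Figure D4:**
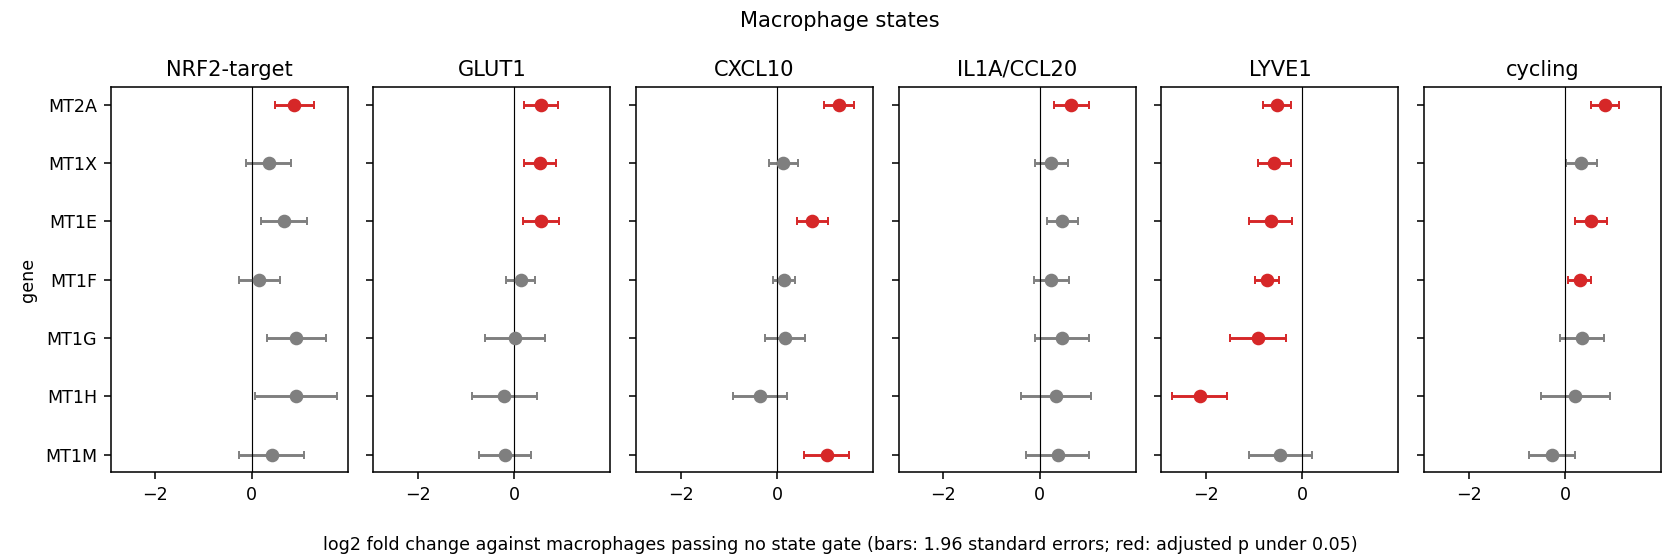
Log2 fold change of each member in each macrophage state against macrophages passing no state gate, with bars for the 95% interval and calls in red. MT2A is highest in the CXCL10 state (1.29), and MT1H is lowest in the LYVE1 state (-2.13).

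The study's own question was whether maraviroc changed the tumor's immune cells, and for the family no difference was called. Over all myeloid cells the paper reports enriched interferon response pathways and decreased TREM2 and GPNMB with maraviroc. That measure differs from the sums per mouse and gate used here. In macrophages the 7 untreated mice ranged from 227 to 1125 CPM of MT2A (median 403) and the 7 maraviroc-treated mice from 336 to 697.5 (median 485). For MT1G the ranges were 77.8 to 599.96 CPM (median 132) and 61.3 to 247 (median 158). For the summed family they were 551 to 2889 CPM (median 872) and 599 to 1483 (median 1046). The groups overlapped for every member, and the order of the medians was opposite to that of the means, 1349 ± 915 CPM of the family untreated and 1023 ± 338 treated.

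In the edgeR fit of macrophages 0 of 11509 genes were called (0%), with 356 at an unadjusted p under 0.05, and DESeq2 called 0 as well. MT2A was at -0.26 ± 0.325 (95% interval -0.90 to 0.37), MT1X at -0.46 ± 0.28 (-1.01 to 0.09), MT1G at -0.62 ± 0.41 (-1.42 to 0.18) and MT1H at -0.82 ± 0.53 (-1.86 to 0.22), each with an adjusted p of 1 in the edgeR fit. MT1E (-0.37), MT1F (-0.32) and MT1M (-0.56) had the same sign. All 7 signs turned without both untreated mice of hashtag B0251, to 0.43 for MT2A, 0.04 for MT1X, 0.23 for MT1G and 0.32 for MT1H, an alternative chosen after the data had been seen. Over the 7 members the lower ends of the 95% intervals ran from -1.86 to -0.79 and the upper ends from 0.09 to 0.44, and differences within these limits are not excluded by these mice.

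The pair of mice behind this turn, untreated replicates 1 and 5, carried the same hashtag number in different reactions. In macrophages each stood above all 12 others for all 7 members. MT2A was 1125 and 1116 CPM in them against 227 to 697.5 (median 392), MT1G was 390.5 and 599.96 against 61.3 to 247 (median 142), and the family was 2411 and 2889 against 551 to 1483 (median 864). In macrophages passing no state gate they also led for 6 of the 7 members, with a family of 2227 and 3011 CPM against 409 to 1671. CXCL10 cells made up 14.3% of the macrophages of untreated replicate 1 and 22.1% of those of untreated replicate 5, against 2.81% to 24.8% in the others.

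In monocytes, T cells and NK cells these mice did not both stand above the others for any of these summed levels or for MT2A. They were still near the top of reactions 1 and 2. In monocytes and in T cells they ranked 1 and 2 there for MT2A and for the summed family. In NK cells they ranked 2 and 3 for MT2A and 2 and 1 for the family. In T cells their MT2A was 696 and 614 CPM against 380 to 704, and in NK cells 669 and 458 against 260 to 779. In monocytes untreated replicate 1 was the highest of all mice for MT1G, MT1H and MT1M, at 446, 329 and 65.6 CPM, whereas untreated replicate 5 stood at 149, 80.3 and 13.3, with rank 3 in its reaction. Whether anything beyond the hashtag number links the animals was not tested.

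**Figure D5:**
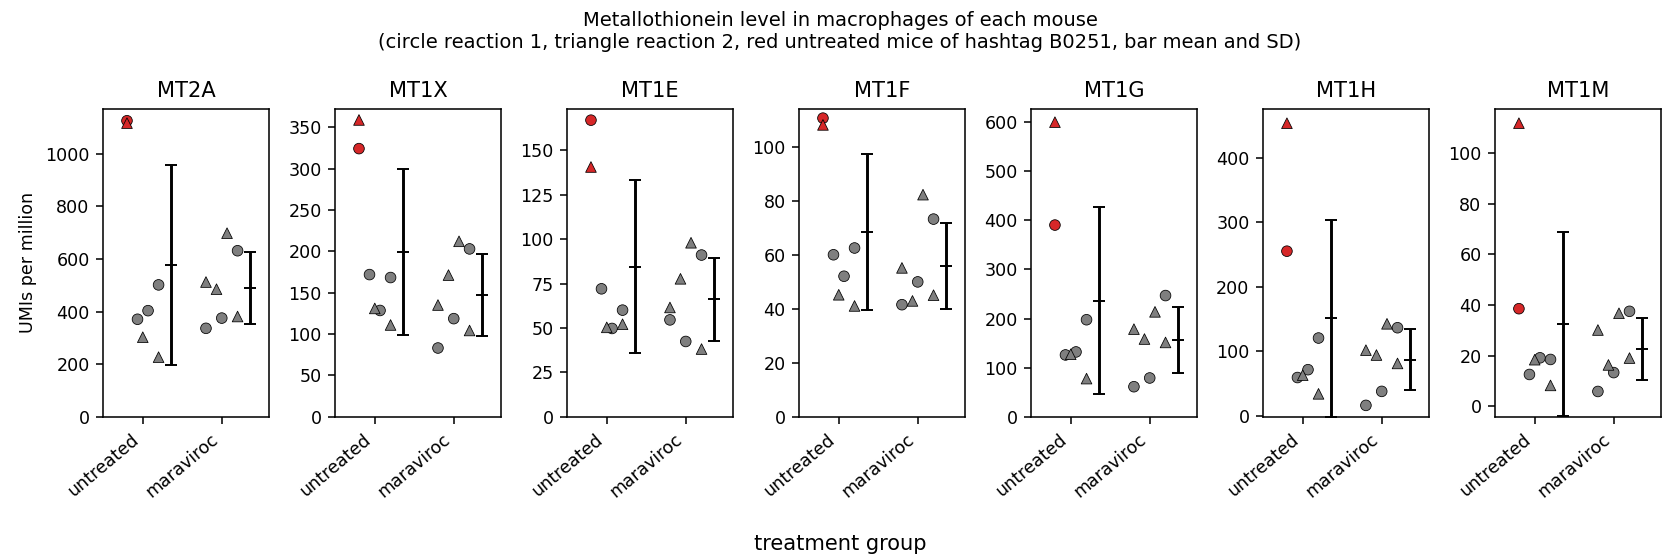
Level of each member in gated macrophages of each mouse, in CPM on linear axes, by treatment, with circles for reaction 1, triangles for reaction 2, red for untreated replicates 1 and 5, and bars for the mean and SD of each treatment. Untreated replicates 1 and 5 lie above the other 12 mice, and the treatment groups overlap.

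By reaction, the treatment effect on macrophage MT1H, as a difference of mean log2(CPM + 1), was -1.27 in reaction 1 and 0.04 in reaction 2, and on MT2A -0.32 and 0.25. An exact two-sided permutation of treatment within reactions (1225 arrangements) gave p = 0.344 for MT1H, p = 0.4661 for MT2A and p = 0.46 for MT1G for the difference between reactions, with adjusted p = 0.774 over the 7 members. Without untreated replicate 5 the unadjusted p was 0.0305 for MT1H and 0.0457 for MT1G.

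Outside macrophages maraviroc made no called difference to the members either. In monocytes 0 of 7587 genes were called (0%, 315 at an unadjusted p under 0.05), with MT2A at -0.05 ± 0.264 and MT1X at 0.20 ± 0.354. In T cells 0 of 10306 were called (0%, 605 unadjusted), with MT2A at -0.10 ± 0.136 (95% interval -0.37 to 0.17) and MT1X at -0.08 ± 0.126. In NK cells 0 of 5948 were called (0%, 127 unadjusted), with MT2A at 0.07 ± 0.199. In CD1C+ dendritic cells 0 of 5097 were called (0%, 249 unadjusted), with MT2A at -0.18 ± 0.229 over 5 untreated and 3 treated mice. DESeq2 called 0 in each. T cells gave the tightest limits, since their MT2A SD was 99.7 CPM on a mean of 562. None of the zinc and copper, NRF2, glucocorticoid, heat shock or hypoxia genes tested was called in the 5 gates.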

How the data were processed

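Live human CD45+ cells were profiled by droplet 3' RNA-seq with hashtag antibodies in 2 reactions. The authors deposited raw UMI counts per gene and hashtag, made with Cell Ranger 9.0.1 on GRCh38 (the submitters' notes also name Seurat 5.1.0), without normalization. The organism label names mouse, whereas the counts are of human genes. Columns of other samples numbered 0.

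Hashtags were called with HTODemux (Seurat 5.3.0, R 4.3.3, positive quantile 0.99) on counts normalized by centered log-ratio, and singlets with 601 to 6000 genes and under 12.5% mitochondrial UMIs were kept. Doublets within a mouse were not removed. Gates needed minimum UMIs, distinct markers and UMIs per 10000 of fixed marker lists. The minimums were set after marker counts were seen but without looking at metallothioneins. The members, marker lists and gene lists were chosen with earlier results of these data known. Each mouse is the replicate, and a mouse entered a gate with at least 10 cells.

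UMIs summed per mouse and gate were tested with edgeR 4.0.16 (glmQLFTest, TMM, filterByExpr, Benjamini-Hochberg, threshold 0.05), with the mouse as block between gates and without covariates between treatments. Intervals of 95% are from the SE and the normal distribution. The 7 members were read in every comparison in which they passed the low-count filter, and members left unnamed there were not called with all mice. From each list at most 3 genes per direction were named, those with the largest change among genes called. In simulated counts in which a known set of genes differed by log2 1, edgeR found 87.8% of 196 changed genes in the treatment comparison of macrophages (11364 genes) and 97.2% of 180 in T cells against macrophages (11024 genes). False calls numbered 10 and 25. As a share of all calls they exceeded the threshold of 0.05, more so in T cells against macrophages. Calls between gates with an adjusted p close to the threshold are therefore less certain than that value states. The changed genes were drawn at random, so the shares of changed genes found do not give the power for a member. The members' treatment SE in macrophages ran from 0.239 for MT1F to 0.53 for MT1H. Alternatives were DESeq2 1.42.0, RLE scaling, no low-count filter, a stricter hashtag quantile, above 1000 genes, doubled thresholds, cells thinned to 4000 UMIs, each reaction, other blocks and each mouse left out. Sequences are not shown.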

Additional observations from a re-analysis of the deposited data

Results flagged for a closer look

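Among 49 groups of 4 to 10 mice (1 treatment, 1 gate and 1 gene or the summed family), 8 held a mouse whose gap to its nearest neighbour, over the range of the group, exceeded the 95% critical value of Dixon's test. For normally distributed values and independent groups, chance alone would flag about 1 group in 20. These are CPM whose distribution was not tested, the same mice recur and the summed family holds the members, so that rate need not hold here. In macrophages untreated replicate 5 stood out for MT1M, at 112 CPM where the next mouse had 38.6. In monocytes untreated replicate 1 stood out for MT1G, at 446 CPM against 149 in the next mouse, and for MT1H, at 329 CPM against 80.3. Maraviroc replicate 1 stood out for MT1X in monocytes, at 442 CPM against 171. In T cells MT1F was 56.7 CPM in untreated replicate 2, which had 20 T cells, against 34.4 in the next mouse. In NK cells MT1X was lowest in untreated replicate 7, at 32.8 CPM against 45.6, and MT2A was highest in maraviroc replicate 3, at 779 CPM against 506. The summed family in CD1C+ dendritic cells was 497 CPM in untreated replicate 6, where the next mouse had 333. No cause was tested for any of these values.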

How the results depend on the processing

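Treatment differences were small, and their signs moved with the setting. A setting chosen after the data had been seen left out both untreated B0251 mice, the highest in macrophages for each member. There the macrophage values turned to 0.43 for MT2A, 0.21 for MT1E, 0.55 for MT1M and 0.084 for MT1F. MT1G was at 0.23, MT1H at 0.32 and MT1X at 0.039. In monocytes the signs turned there too, to 0.21 for MT2A, 0.87 for MT1G and 0.96 for MT1H, and in T cells to 0.10 for MT1E. With the reaction as block monocyte MT2A was at 0.047 and MT1G at 0.0027. In reaction 2 alone monocyte MT2A was at 0.11, MT1G at 0.28 and MT1H at 0.74, T cell MT1E at 0.024 and NK cell MT1X at -0.10. In reaction 1 alone T cell MT2A was at 0.089, MT1F at 0.067 and MT1X at 0.063. Thinned monocytes gave 0.013 for MT1G, 0.026 for MT1H and -0.051 for MT1X, doubled thresholds gave -0.028 for MT1E and -0.37 for MT1X, and a stricter hashtag quantile gave 0.059 for MT1G and -0.21 for MT1X. DESeq2 gave 0.016 for T cell MT1E. None of these values was called.

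Between gates, in the settings that did not leave out single mice, 578 values of members kept their sign and side of the threshold. Another 90 kept their sign but lost their call, 14 gained a call and 50 changed sign. The values that changed sign were mostly ones not called at first. In reaction 1 alone NRF2-target cells had MT1M at -0.19, MT1F at -0.20 and MT1H at -0.032, GLUT1 cells had MT1F at -0.014 and MT1G at -0.65, and CXCL10 cells had MT1F at -0.094, MT1G at -0.57 and MT1X at -0.43. There IL1A/CCL20 cells had MT1M at -0.73, MT1F at -0.14, MT1G at -0.18, MT1H at -0.29 and MT1X at -0.18, cycling cells had MT1H at -0.029, monocytes MT1X at 0.088, and FOXP3 T cells MT1X at 0.33. In reaction 2 alone MT1M was at 0.36 in GLUT1, 0.22 in LYVE1 and 0.11 in cycling cells, MT1H at 0.021 in GLUT1 cells and MT1X at 0.049 in CD8A T cells. In thinned cells the GLUT1 state had MT2A at -0.47, MT1E at -0.20, MT1F at -0.053, MT1G at -2.51 and MT1X at -0.33. The thinned IL1A/CCL20 state had MT1F at -0.95, MT1G at -1.42, MT1H at -7.63 (called, adjusted p = 0.0146 in the edgeR fit) and MT1X at -0.58. All thinned macrophages, of which this state is a part, held 502 MT1H UMIs in reaction 1 and 791 in reaction 2. No floor of counts was applied to the MT1H value, as was done for tumor cells, so its size is not a measured fold. Thinned cells also gave -0.016 for MT1H in cycling macrophages, and for MT1X 0.25 in CD8A T cells, 0.20 in FOXP3 T cells and -0.032 in cycling T cells. Doubled thresholds gave -0.18 for MT1G in GLUT1 cells, -0.23 for MT1H in IL1A/CCL20 cells, -0.90 for MT1G and -1.25 for MT1H in cycling macrophages, and for MT1X 0.12 in CD8A and 0.17 in FOXP3 T cells. DESeq2 gave -0.18 for MT1G in GLUT1 and -0.088 for MT1M in IL1A/CCL20 cells. Without a filter GLUT1 MT1G was at -0.10 and FOXP3 MT1X at 0.076. Without both B0251 mice MT2A in T cells against macrophages was at 0.091, MT1X at 0.021 in CD8A and 0.0043 in FOXP3 T cells, and MT1F at -0.12 in FOXP3 T cells. Dropping the replicate block, that is the mouse, gave -0.018 for MT1G in GLUT1 cells and 0.030 for MT1X in FOXP3 T cells. Without it 18 members' calls were lost, those of MT2A in the NRF2-target, GLUT1, IL1A/CCL20 and LYVE1 states among them (adjusted p = 0.0745, 0.123, 0.187 and 0.0752 in the edgeR fit). No paired analysis was possible for treatment because treated and untreated mice are different animals and share only 1 hashtag number, B0254, across reactions.

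Counts of called genes moved by more than 1.5 times under these settings. In reaction 1 alone 97 were called in NRF2-target cells (584 with all mice), 1270 in GLUT1 (2295), 552 in CXCL10 (1585), 252 in IL1A/CCL20 (972), 937 in LYVE1 (2255) and 1714 in cycling cells (3403), 3970 in monocytes (6184), 801 in NK cells (2316), 779 for CD8A (2229), 290.0 for FOXP3 (1755) and 1035 for cycling T cells (3069), and 1 for treatment in monocytes. In reaction 2 alone they were 250.0 in NRF2-target, 1005 in GLUT1, 870.0 in CXCL10, 391 in IL1A/CCL20 and 1375 in LYVE1 cells. Thinned cells gave 311 in GLUT1, 621 in CXCL10, 61 in IL1A/CCL20, 591 in LYVE1 and 1059 in cycling cells, 3926 in monocytes, 1095 for CD8A, 782 for FOXP3 and 1000 for cycling T cells. Doubled thresholds gave 972 in GLUT1, 326 in IL1A/CCL20, 1274 in LYVE1, 1085 for FOXP3 and 1979 for cycling T cells, and 2 for treatment in CD1C+ dendritic cells. Without a filter 900.0 were called in NRF2-target cells, and for treatment 19 in monocytes, 12 in NK cells and 48 in CD1C+ dendritic cells. Without the mouse block 626 were called in IL1A/CCL20 cells. In thinned cells the family mean was 409 CPM in CD1C+ dendritic cells and 58.1 in plasmacytoid dendritic cells. Each reaction alone, thinning and doubled thresholds leave fewer cells, mice or UMIs, and leaving out the filter adds genes. The cause of the shift without the mouse block was not tested.

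Leaving out 1 mouse at a time left between 0 and 1 gene called for treatment in CD1C+ dendritic cells (1 without maraviroc replicate 4). The difference of the treatment effect between reactions ranged from -0.13 to 0.71 for MT1E, -0.0086 to 0.68 for MT1F, 0.16 to 1.62 for MT1G, 0.55 to 2.40 for MT1H and -0.43 to 1.37 for MT1M. Treatment values ranged from -0.75 to 0.23 for MT1M in macrophages. In monocytes they ranged from -0.22 to 0.11 for MT2A, -0.33 to 0.57 for MT1G, -0.55 to 0.64 for MT1H and -0.18 to 0.41 for MT1X. They ranged from -0.18 to 0.051 for MT1E in T cells and from -0.10 to 0.19 for MT2A and -0.088 to 0.22 for MT1X in NK cells. Between gates, MT1G ranged from -0.23 to 0.21 and MT1H from -0.45 to 0.033 in GLUT1 cells, MT1H from -0.0062 to 0.52 in IL1A/CCL20 and -0.080 to 0.43 in cycling cells, MT2A from -0.18 to 0.00087 in T cells against macrophages, and MT1X from -0.10 to 0.033 in CD8A and -0.057 to 0.071 in FOXP3 T cells. Of the other values without 1 mouse, 876 of the gate comparisons and 269 of the treatment comparisons kept their sign and side of the threshold. Thinned cells could not be fitted for NRF2-target and tumor cells, tumor cells could not be fitted in reaction 2 alone, nor CD1C+ dendritic cells in reaction 1 alone, and MT1E in NK cells was not tested in reaction 2 alone. Depth limits the small gates, with 313139 UMIs in the 51 mast cells, 503785 in the 74 B cells and 541628 in the 52 tumor cells, and MT1 reads shared between copies limit single MT1 members in every gate.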
